A study of Mus musculus with 9 samples.

Results

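Livers of mice given vesicles from a non-tumorigenic breast line were compared with livers of mice given saline, using 6 of the 9 RNA-seq libraries of the study. All animals were NSG mice, an immunodeficient strain that lacks mature lymphocytes, and the labels give every group the genotype WT. For 5 weeks they received tail vein injections of phosphate-buffered saline (PBS, 3 libraries) or of extracellular vesicles (EVs) shed by MCF-10A, an immortalised human breast epithelial line that forms no tumours (3 libraries). The other 3 libraries came from mice given EVs of the triple-negative breast cancer line MDA-MB-231 (human), and are used below only to show where the MCF-10A EV livers differ from them. Sex, age, vesicle dose and whether a library came from 1 mouse or a pool are not given by the labels, and p-values therefore speak of the scatter among these libraries alone, which may be technical. The series title names cholesterol homeostasis and miR-9-5p secreted by cancer cells. Vesicles of a non-tumorigenic line given to the same strain serve as a control for injected human vesicles as such.

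Each value is in TPM, a level per unit of transcript length and relative to all transcripts of its library. The table lists 61473 features. Of these, 55414 are Ensembl genes, 20085 of those were above 0 in at least 1 library of each group, and 12456 of those had a mean of at least 1 TPM and were tested. Each library was rescaled to the same total over the 20085 genes. Read depth cannot be recovered from TPM and is unknown, so values carry no counting interval.

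Extracellular vesicles are membrane-bound particles that carry protein and RNA of the cell that sheds them. After intravenous injection much of a vesicle dose is known to be taken up in the liver, mainly by Kupffer cells, the resident macrophages, and by sinusoidal endothelium. Hepatocytes, which make most liver RNA, secrete plasma proteins and the acute phase reactants, synthesise and export cholesterol, turn it into bile acids, and oxidise fatty acids under the receptor PPARA.

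A difference in how the deposited columns were made runs along the group boundary. All 6059 loci assembled from reads were at 0 in the MCF-10A EV libraries, whose deposited values summed to 979351, 946777 and 934986 TPM, while the PBS libraries summed to 1000000 TPM and held 1.82% to 3.02% of it in assembled loci. The mitochondrial gene mt-Co2, which every liver cell uses, was listed at 0 in all 3 MCF-10A EV libraries and at 69.1 to 401 TPM in the PBS libraries. Injection of MCF-10A EVs and this difference in the columns cannot be told apart. Among the libraries, PBS 1 and MCF-10A EV 1 stood apart from their groups. PBS 1 had 27.2% of its TPM in mitochondrially encoded genes (12.5% and 8.39% in PBS 2 and 3), and MCF-10A EV 1 held 29214 TPM of the acute phase gene Saa1 (245 and 1296 TPM in MCF-10A EV 2 and 3). The 13 hepatocyte markers were all tested and summed to between 52424 and 167131 TPM, lowest in PBS 1, so the defining transcripts of liver were present in every library. In PBS 2 the fat cell gene Cfd stood at 294 TPM against at most 5.49 TPM in the other 5 libraries.

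Few liver genes differed between MCF-10A EVs and PBS beyond the spread of 3 libraries a group. Of 12456 genes, 17 (0.136%) passed limma's test on log2(TPM + 1) at an adjusted p under 0.05. Of these, 3 (0.0241%) rose with MCF-10A EVs and 14 (0.112%) fell. At an unadjusted p under 0.05 there were 460 genes (3.69%). The values of both groups did not overlap for 937 genes (7.52%), 443 (3.56%) higher and 494 (3.97%) lower with MCF-10A EVs. At 3 against 3 libraries, a fraction of 0.1 of genes is expected to separate without any group difference. The shares of separated genes and of genes at an unadjusted p under 0.05 were each below that expected without a difference. Separation is therefore a description below and no evidence for a single gene. Over all genes tested 59.6% were above 0 and 40.4% below, with a median log2 change of 0.10, a shift to keep in mind for every list below. That median was -0.031 when mitochondrially encoded genes were left out of the scaling. Lower genes made up 82.4% of the calls, 70.8% after median ratio scaling and 68.2% after quantile normalization. The number of calls fell whichever library was left out: it was 7, 7 and 4 without PBS 1, 2 and 3, and 5, 2 and 2 without MCF-10A EV 1, 2 and 3. A fit of fewer libraries is also less able to call a gene, so the drop does not measure the weight of a single library. Weighting libraries by how closely they followed the fit gave 438 calls, which included all 17. Those weights come from the same values, so this count adds no separate support. A fit with the replicate number as a block gave 0 calls.

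**Figure D1:**
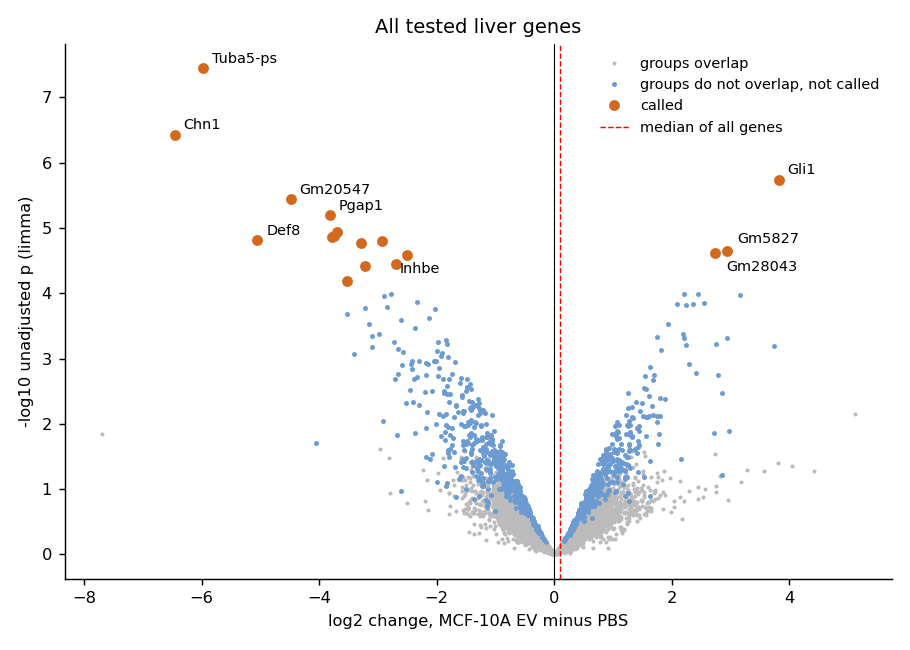
Log2 change of each of the 12456 tested genes (MCF-10A EV minus PBS, x axis) against the -log10 of its unadjusted limma p (y axis). Orange points are the 17 called genes, blue points genes whose 6 libraries separate by group without a call, and the dashed line is the median of all genes at 0.10.

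The firmest difference belonged to Tuba5-ps, an alpha-tubulin pseudogene (chr1:134519978-134524139, plus strand, GRCm38, where the annotation names it Gm29376). It stood at 57.4, 82.6 and 64.1 TPM in PBS 1 to 3 and at 0, 0.085 and 0.171 TPM in MCF-10A EV 1 to 3. It fell by 5.98 ± 0.32 (SE) on the log2 scale, with a limma adjusted p of 0.00045. It passed without any 1 of the 6 libraries. The livers given MDA-MB-231 EVs held 30.5, 64.9 and 81.2 TPM, within or near the PBS range. Copies of one gene family can trade reads. Tuba1a, a working member of the family, was at 3.18, 7.61 and 4.89 TPM with PBS and at 31.9, 18.7 and 9.98 TPM with MCF-10A EVs, so the groups did not overlap in the opposite direction, yet its log2 change of 1.69 missed the threshold (limma adjusted p = 0.608). The other tested alpha-tubulins, Tuba1b, Tuba1c, Tuba4a and Tuba8, overlapped between groups. Tuba1a was singled out after its values were seen, and whether reads moved between these copies was not tested.

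Chn1, a brake on the GTPase Rac best known from neurons, was at 179, 85.7 and 54.4 TPM with PBS and at 0, 0.0317 and 0.236 TPM with MCF-10A EVs. It lies on chr2:73610660-73775346 (minus strand, GRCm38). It fell by 6.46 ± 0.46 (SE) on the log2 scale (limma adjusted p = 0.00235) and also passed without any 1 of the 6 libraries. Its paralog Chn2 was level, at 11.6 to 14.3 TPM with PBS and 11.5 to 12.9 TPM with MCF-10A EVs.

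Gli1 was the 1 called gene of the higher group with a described function. It encodes a zinc finger transcription factor that carries out hedgehog signals and is itself a standard target of the pathway. Hedgehog ligands bind the receptor Ptch1, which frees Smo and lets Gli factors act, while Sufu holds them back. In adult liver the pathway is kept low in hepatocytes. Gli1 stood at 0.197, 0.103 and 0.176 TPM in the PBS livers and at 14.1, 19.7 and 12.9 TPM in the MCF-10A EV livers, on chr10:127329882-127341974 (minus strand, GRCm38). It rose by 3.82 ± 0.33 (SE) on the log2 scale (limma adjusted p = 0.00755) and passed in 3 of 6 fits with 1 library left out: without PBS 1, PBS 2 or MCF-10A EV 1. Its adjusted p ran from 0.0330 to 0.0691 over these 6 fits. The group means were 0.159 ± 0.0492 TPM (SD, n = 3) and 15.6 ± 3.62 TPM. In the MDA-MB-231 EV livers Gli1 was at 0.112, 0 and 0.129 TPM, like PBS.

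The rest of the hedgehog list did not follow Gli1. Of 18 names 9 were tested, 1 was called higher, none was called lower, and the other 8 lay below 0, with a list median of -0.21. The members next named were chosen after their values were seen. Ptch1, the receptor and like Gli1 a usual target, was lower in every MCF-10A EV library (1.28, 1.41 and 1.93 TPM) than in any PBS library (7.57, 2.25 and 4.05 TPM), a log2 change of -1.04 that was not called. Smo was at 3.94 to 7.43 TPM with PBS and 3.18 to 5.60 TPM with MCF-10A EVs. Sufu ranged over 1.63 to 4.97 and 1.47 to 3.22 TPM. Hhip, another usual target, ranged over 0.661 to 1.29 and 0.296 to 2.23 TPM. Gli3 was high in 1 library, PBS 1, at 8.97 TPM.

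The called gene Inhbe lies 6882 bases from Gli1 on the same strand (chr10:127348857-127354411, GRCm38). It encodes an activin chain, inhibin beta E, that hepatocytes secrete. Inhbe was at 17.0, 19.1 and 17.1 TPM with PBS and at 1.94, 2.55 and 2.42 TPM with MCF-10A EVs. It fell by 2.51 ± 0.30 (SE) on the log2 scale (limma adjusted p = 0.0230), the smallest change among the called genes, and passed in none of the 6 fits with 1 library left out. The levels of the pair summed to 17.2, 19.2 and 17.2 TPM with PBS and 16.1, 22.2 and 15.3 TPM with MCF-10A EVs. The mean sums were 17.9 ± 1.14 and 17.9 ± 3.80 TPM (SD, n = 3). One member of the pair replaced the other in the table, at a nearly equal total. TPM is per length, so equal sums are not equal numbers of reads. Inhbc, the next activin gene on the other side of Inhbe, was at 43.2 to 54.4 TPM with PBS and 29.9 to 47.5 TPM with MCF-10A EVs.

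Other called genes also had a neighbour whose groups separated in the opposite direction, a pattern noticed after the values were seen and given here as a description. The totals were less alike than for Gli1 and Inhbe: they did not overlap between groups for the pairs of Mri1, Gm14026, Zfp367 and Gm20547 given next, and overlapped for Gm28043 and Ccdc167. Among the 17 called genes 7 (41.2%) had such a neighbour within 10000 bases, with Gli1 and Inhbe counted as 2 of the 7. The share was 5.8% of all genes with separated groups and 3.5% of all tested genes with a position in GENCODE M21. Whether the reads of these loci were divided differently between gene models in the MCF-10A EV columns was not tested.

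Mri1, an enzyme of methionine salvage (chr8:84249906-84257326, minus strand, GRCm38), was at 44.8, 44.2 and 54.7 TPM with PBS and 8.98, 5.33 and 5.73 TPM with MCF-10A EVs. It fell by 2.69 ± 0.34 (SE) on the log2 scale (limma adjusted p = 0.0292). Mri1 passed in 0 of 6 fits with 1 library left out, as did Gm14026, Zfp367 and Gm28043, described next. Gm20547 passed in 3 of 6. D8Ertd738e starts 186 bases away on the same strand. It was at 69.1, 164 and 110 TPM with PBS and 220, 349 and 333 TPM with MCF-10A EVs, higher in every library but not called (log2 change 1.44 ± 0.44, limma adjusted p = 0.732). Here the sums differed, at 162 ± 47.3 TPM (SD, n = 3) with PBS and 308 ± 68.3 TPM with MCF-10A EVs.

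Gm14026, a processed pseudogene (chr2:129168700-129170488, plus strand, GRCm38), fell from 8.36, 6.26 and 6.86 TPM to 0.0715, 0 and 0.118 TPM, a log2 change of -2.93 ± 0.33 (SE, limma adjusted p = 0.0194). The antisense gene AI847159 overlaps it over all of its 1789 bases. That gene was at 0 in every PBS library and at 33.6, 35.1 and 27.2 TPM with MCF-10A EVs. It entered no test, since it had to be above 0 in both groups. The labels do not say whether the library kit kept strand, and without strand, reads of such a pair cannot be told apart.

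Zfp367, a zinc finger transcription factor on chromosome 13, was at 60.2, 22.4 and 18.8 TPM with PBS and 2.43, 1.06 and 1.66 TPM with MCF-10A EVs (log2 change -3.52 ± 0.48, limma adjusted p = 0.0472). Its same-strand neighbour Slc35d2, a nucleotide sugar transporter, was at 22.2, 24.1 and 25.9 TPM and at 27.5, 26.0 and 27.7 TPM, separated by a narrow margin, and the pair summed to a mean of 57.8 TPM with PBS and 28.8 TPM with MCF-10A EVs. Gm20547 is a predicted gene that spans the complement genes C2 and Cfb on chromosome 17. It was at 64.2, 27.4 and 24.9 TPM with PBS and at 0.858, 0.465 and 0.568 TPM with MCF-10A EVs (log2 change -4.49 ± 0.42, limma adjusted p = 0.0114). Cfb, complement factor B, was at 762, 1227 and 1307 TPM with PBS and 1848, 1363 and 1861 TPM with MCF-10A EVs, higher without a call, and its mean sum with Gm20547 was 1138 and 1691 TPM. Gm28043, which overlaps Rnf8 and Cmtr1, rose from 0.176, 0.289 and 0.425 TPM to 9.01, 7.10 and 6.97 TPM (log2 change 2.74 ± 0.33, limma adjusted p = 0.0230). Ccdc167, which overlaps it on the other strand, was at 7.01, 13.7 and 13.8 TPM and at 4.81, 6.68 and 6.31 TPM. The values of overlapping genes such as these are uncertain, since the same reads can belong to either.

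**Figure D2:**
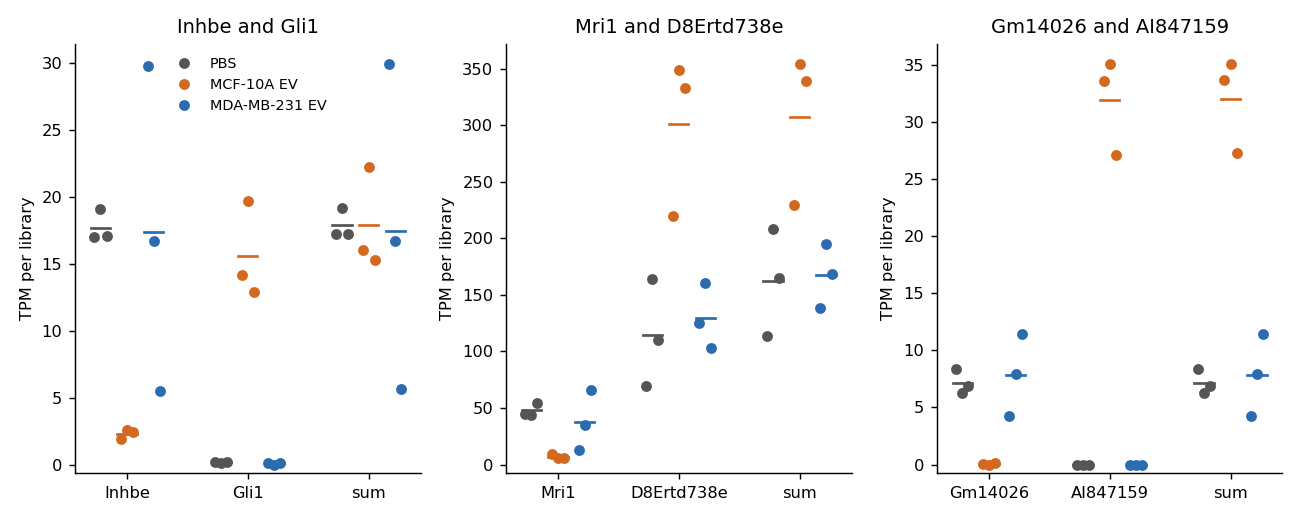
TPM per library (y axis) of 3 called genes, of the neighbour that went the other way and of their sum, for PBS (grey), MCF-10A EV (orange) and MDA-MB-231 EV (blue), with a bar at each mean. Gli1 and Inhbe trade places at equal mean sums of 17.9 TPM, while the sums for the other pairs are higher with MCF-10A EVs.

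Most of the other called genes were lower with MCF-10A EVs. Def8, a protein linked to lysosome positioning, was at 503, 404 and 111 TPM with PBS and 9.46, 6.57 and 6.91 TPM with MCF-10A EVs (log2 change -5.05 ± 0.57, limma adjusted p = 0.0194). That change was -5.72 without PBS 3, the lowest PBS library. The spread of Def8 across the study was wide, since MDA-MB-231 EV 3 held 2057 TPM. Pgap1, an endoplasmic reticulum enzyme that trims the lipid of GPI anchors, was at 63.0, 32.1 and 31.9 TPM and at 1.33, 2.15 and 2.37 TPM (log2 change -3.82 ± 0.39, limma adjusted p = 0.0160). Tm4sf5, a multi-pass membrane protein, was at 21.96, 7.54 and 12.9 TPM with PBS and at 0.0613, 0 and 0 TPM with MCF-10A EVs (log2 change -3.77 ± 0.42, limma adjusted p = 0.0194). Its relatives Tm4sf1 and Tm4sf4 overlapped between the groups.

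Among lower genes of 10 to 16 TPM with PBS, Nkain4, which binds the sodium pump, was at 11.9, 10.8 and 14.9 TPM and at 1.01, 0 and 0.278 TPM (log2 change -3.29 ± 0.38, limma adjusted p = 0.0194). Ntn1, the secreted guidance protein netrin 1, was at 15.8, 10.4 and 14.7 TPM and at 1.57, 0.243 and 0.161 TPM (log2 change -3.22 ± 0.41, limma adjusted p = 0.0304). Separation of the groups was a condition for naming both genes. MCF-10A EV 1 was the highest of its group for each. MDA-MB-231 EV 1 to 3 were split, at 0.753, 0.132 and 16.9 TPM for Nkain4 and at 4.60, 0.873 and 40.9 TPM for Ntn1. Of the remaining predicted genes, the long noncoding Gm47076 was at 8.19 to 20.3 TPM with PBS and at most 0.0211 TPM with MCF-10A EVs. The pseudogene Gm5827, in the neighbourhood of Cyp2c70, rose from at most 0.352 TPM to between 6.08 and 9.30 TPM. With 1 library left out, Def8, Nkain4 and Ntn1 each passed in 1 of 6 fits, Pgap1 in 2 of 6 and Gm5827 in 0 of 6. Tm4sf5 and Gm47076 each passed in 1 of 5.

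Tmem254a, a small transmembrane protein gene of chromosome 14, was at 27.5, 40.6 and 69.2 TPM with PBS and at 1.64, 3.12 and 2.14 TPM with MCF-10A EVs (log2 change -3.75 ± 0.42, limma adjusted p = 0.0194). It passed in 1 of 6 fits with 1 library left out. Its sequence is shown because the value may depend on how reads of identical copies are assigned: Tmem254a has neighbouring copies, Tmem254b and Tmem254c, on the same strand. Their annotated coding sequences are identical to it over 387 of 387 bases (GENCODE M21, GRCm38). The first 150 bases of the coding sequence, which starts within chr14:25924790-25927149 on the minus strand and is the same in all 3 copies, read as follows.
Tmem254a: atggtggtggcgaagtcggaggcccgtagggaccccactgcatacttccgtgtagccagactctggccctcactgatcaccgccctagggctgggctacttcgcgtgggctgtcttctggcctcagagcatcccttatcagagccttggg
A read from this stretch fits each copy equally well, and the value of Tmem254a is uncertain for that reason. Among genes with a Tmem254 symbol, only Tmem254a held any signal in these libraries. How reads of the copies were assigned was not tested.

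**Figure D3:**
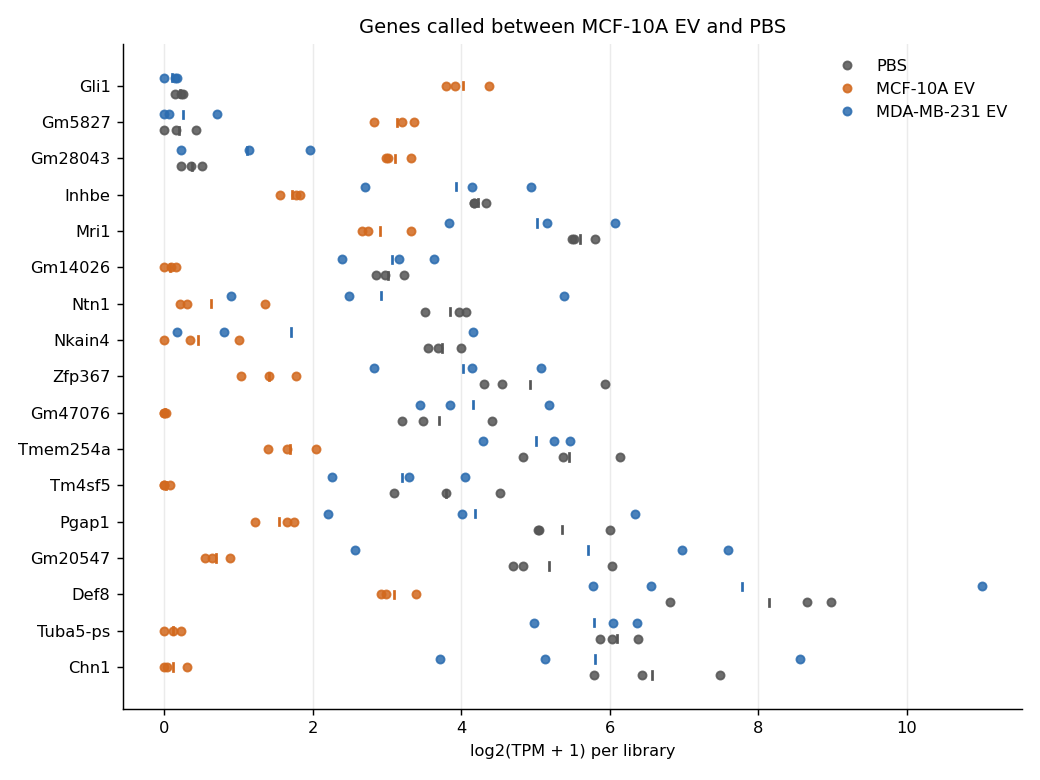
Log2(TPM + 1) in every library (x axis) for the 17 called genes (y axis), with a tick at each group mean. The MCF-10A EV libraries (orange) lie apart from the PBS libraries (grey) for each gene, and the MDA-MB-231 EV libraries (blue), whose columns hold assembled loci as those of PBS do, lie on the PBS side for Gli1 and Tuba5-ps.

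Some of these genes also set the MCF-10A EV livers apart from the MDA-MB-231 EV livers. Over the same 12456 genes, 5 (0.0401%) passed between MDA-MB-231 EV and MCF-10A EV in a limma fit of all 9 libraries, and all 5 belong to the 17: Tuba5-ps, Gli1, Gm47076, Gm14026 and Gm5827. The log2 difference of MDA-MB-231 EV minus MCF-10A EV was 5.68 ± 0.42 (SE) for Tuba5-ps (limma adjusted p = 0.000643) and -3.92 ± 0.36 for Gli1 (limma adjusted p = 0.00248). Both comparisons share the MCF-10A EV libraries, so they are not independent. The MDA-MB-231 EV columns resembled the PBS columns, with 1.21% to 5.70% of TPM in assembled loci and mt-Co2 at 271 to 681 TPM. Vesicle type and the difference in the columns therefore cannot be told apart either. For Chn1 the difference of 5.68 ± 0.99 missed the threshold (limma adjusted p = 0.141), with MDA-MB-231 EV libraries spread from 12.1 to 377 TPM.

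Below the threshold, the 9 higher genes next in order of p with a described symbol and separated groups were not called. Mbtps1, a sterol gene, is one of them. Nsmaf, an adaptor that couples a death receptor to sphingomyelinase, was at 8.97, 5.48 and 4.72 TPM with PBS and 28.3, 50.4 and 49.0 TPM with MCF-10A EVs (log2 change 2.56 ± 0.39, limma adjusted p = 0.0707). Trim14, an adaptor of antiviral signalling, was at 0.560, 1.68 and 0.912 TPM and at 12.3, 9.22 and 8.49 TPM (2.44 ± 0.36, limma adjusted p = 0.0633). Rnf216, a ubiquitin ligase, was at 2.47 to 2.81 TPM and at 13.04 to 26.7 TPM. Snhg9, a host gene of small nucleolar RNA, was at 6.86 to 9.85 TPM and at 34.3 to 42.9 TPM. Coro2b, an actin-binding coronin, Rpl29 of the large ribosomal subunit and the histone gene H2bc21 also separated, with log2 changes of 2.25, 2.24 and 2.75. Separation of the groups was a condition for listing these genes, so it adds no support. Mup13, of the major urinary proteins, had 0 to 1.55 TPM with PBS and 5.62 to 47.5 TPM with MCF-10A EVs. The other 17 tested Mup genes overlapped between groups, and their copies are near identical, so the value of Mup13 is uncertain.

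The sterol system, the subject of the series title, gave no call. Cells sense cholesterol in the endoplasmic reticulum, where Scap escorts the SREBP factors (Srebf1, Srebf2) to the Golgi unless Insig1 or Insig2 hold it back. There the site-1 protease, made by Mbtps1, and then the product of Mbtps2 cut SREBP free. Mbtps1 stood out. It was at 13.01, 8.47 and 9.11 TPM in the PBS livers and at 43.8, 38.3 and 42.0 TPM in the MCF-10A EV livers, a mean of 10.2 ± 2.46 TPM (SD, n = 3) against 41.4 ± 2.83 TPM. Separation of the groups was a condition for listing it there. Its log2 change of 1.94 ± 0.33 (SE) was not called (limma adjusted p = 0.105). Mbtps1 was called in 2 of its 20 alternative settings, and in 0 of the 6 fits with 1 library left out (limma adjusted p from 0.0916 to 0.521). The MDA-MB-231 EV libraries held 26.6, 8.41 and 16.5 TPM.

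No other sterol sensing gene separated the groups. Of the 13 in the list all were tested, 10 were above 0 and 3 below, with a median log2 change of 0.37 beside 0.10 over all genes. Scap was at 19.5, 14.8 and 14.7 TPM with PBS and 19.4, 27.3 and 17.5 TPM with MCF-10A EVs (log2 change 0.36 ± 0.34). Insig1 was at 47.7, 48.1 and 91.5 TPM and at 97.2, 78.4 and 46.9 TPM (0.25 ± 0.44). Insig2 was at 20.5, 62.5 and 53.7 TPM and at 84.9, 57.1 and 50.01 TPM (0.59 ± 0.49), lowest in PBS 1. The genes for the SREBP factors overlapped as well, Srebf1 with a log2 change of 0.36 ± 0.45 and Srebf2 with -0.19 ± 0.39. All 5 had a limma adjusted p of 0.997.

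In cholesterol synthesis and uptake 20 of 23 genes were above 0, with a median of 0.39, and 0 were called. Fdft1, squalene synthase, was at 12.9, 32.4 and 42.1 TPM with PBS and at 94.3, 49.9 and 39.3 TPM with MCF-10A EVs (log2 change 1.10 ± 0.53). Hmgcs1, which makes HMG-CoA, gave -0.12 ± 0.58 and Sqle, squalene epoxidase, 0.34 ± 0.57. The list median was 0.21 without MCF-10A EV 1 and 0.15 without PBS 1. With PBS 1 and MCF-10A EV 1 both removed, which was decided once the data had been seen, it was -0.11.

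Cholesterol export gave 7 of 13 genes above 0 and a median of 0.06, which was -0.084 when mitochondrially encoded genes were left out of the scaling and -0.0059 after median ratio scaling. Abcg8, which pumps sterols into bile with Abcg5, was at 26.5, 20.3 and 25.5 TPM with PBS and 17.3, 18.9 and 20.1 TPM with MCF-10A EVs (log2 change -0.34 ± 0.32). The exporter Abca1 gave 0.09 ± 0.44, which was -0.047 without mitochondrially encoded genes in the scaling. Cyp7a1, which sets the rate of classic bile acid synthesis, was at 14.8, 23.7 and 41.5 TPM and at 15.8, 32.0 and 32.4 TPM (0.05 ± 0.47), and its change was -0.086 and -0.0096 under those same settings. The mean was 26.7 TPM in both groups.

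Bile acid genes were lower in 11 of 17 cases, with a median of -0.22 and 0 calls. Nr0b2 encodes SHP, the corepressor through which bile acids shut down their own synthesis. It was at 67.5, 62.5 and 56.5 TPM with PBS and 33.6, 36.6 and 32.9 TPM with MCF-10A EVs, tight in each group and apart in every library (log2 change -0.84 ± 0.32, limma adjusted p = 0.997). Cyp7b1, of the alternative bile acid pathway, was at 22.1, 26.7 and 31.1 TPM and at 7.75, 16.9 and 16.5 TPM (-0.97 ± 0.39). Hsd3b7, which acts on both pathways, went the other way, at 75.0, 45.0 and 74.8 TPM and 108, 77.2 and 146 TPM (0.75 ± 0.40).

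Fatty acid genes split. In fatty acid and triglyceride synthesis 11 of 18 genes were above 0 and the median was 0.10, or -0.051 without mitochondrially encoded genes in the scaling. Scd1, the desaturase that makes oleate, was at 272, 422 and 326 TPM with PBS and 646, 898 and 679 TPM with MCF-10A EVs (log2 change 1.13 ± 0.40, limma adjusted p = 0.997). Tkfc, a kinase of fructose breakdown, was at 59.8, 59.0 and 87.3 TPM and at 101, 143 and 96.3 TPM (0.72 ± 0.37). Acacb, whose malonyl-CoA holds back fatty acid entry into mitochondria, gave -1.35 ± 0.56, with 60.5 TPM in PBS 1 and 5.97 TPM in MCF-10A EV 1 as its extremes.

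In fatty acid oxidation and PPARA targets 13 of 27 genes were above 0, with a median of -0.03, while 3 of the 27 separated, each lower, where 3.97% of all tested genes separated lower. Ppara itself was at 36.8, 23.9 and 13.7 TPM with PBS and 12.1, 11.5 and 9.70 TPM with MCF-10A EVs (log2 change -0.99 ± 0.41). Cyp4a10, an omega-hydroxylase and classic PPARA target, was at 133, 202 and 209 TPM and at 3.91, 59.0 and 44.8 TPM (-2.91 ± 0.86, limma adjusted p = 0.691). Hadha, of the mitochondrial trifunctional protein, was at 61.0, 120 and 82.2 TPM and at 48.7, 30.9 and 36.9 TPM (-1.12 ± 0.39). MDA-MB-231 EV libraries were at 167 to 289 TPM for Cyp4a10, and the difference from MCF-10A EV was 3.09 ± 0.80 on the log2 scale without a call (limma adjusted p = 0.659).

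Detoxification and amino acid genes mostly overlapped between groups, beside 7.52% of all tested genes that separated in either direction. Separated were 1 of 16 xenobiotic receptor and Cyp1 or Cyp3a genes, lower, and 1 of 33 Cyp2 genes in each direction. Separated higher were 3 of 46 phase II genes, 1 of 12 NRF2 targets and 1 of 15 amino acid genes. Of 14 periportal genes, 1 separated in each direction. Ahr, the aryl hydrocarbon receptor, was at 16.2, 12.7 and 10.6 TPM with PBS and 5.71, 3.64 and 6.74 TPM with MCF-10A EVs (log2 change -1.17 ± 0.35, limma adjusted p = 0.719). Its target Cyp1a2 was at 292, 557 and 711 TPM and at 107, 380 and 274 TPM (-1.12 ± 0.58). Cyp2b10, a target of the receptor CAR, gave -1.59 ± 0.63, and Cyp3a11, a target of PXR, 1.07 ± 0.61. Of the 33 tested Cyp2 genes 22 were below 0, with a median of -0.27. Cps1, which starts the urea cycle, was at 129, 136 and 235 TPM with PBS and 539, 341 and 336 TPM with MCF-10A EVs (1.30 ± 0.42, limma adjusted p = 0.866). Etnppl, a phospholyase of ethanolamine phosphate, was at 30.5, 13.1 and 33.8 TPM and at 5.79, 7.90 and 9.13 TPM (-1.55 ± 0.43, limma adjusted p = 0.580). Osgin1, an oxidative stress gene, separated by a narrow margin, at 22.4 to 33.1 TPM and 34.2 to 43.5 TPM.

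Acute phase genes differed widely between libraries. These plasma proteins are made by hepatocytes under interleukin 6 and related signals. All 22 listed genes were tested and lay above 0, with a median log2 change of 1.28, and 0 were called. Saa1, serum amyloid A, was at 21.8, 521 and 173 TPM in PBS 1 to 3 and at 29214, 245 and 1296 TPM in MCF-10A EV 1 to 3 (4.05 ± 1.70, limma adjusted p = 0.997). Orm2, an orosomucoid, was at 131, 306 and 187 TPM and at 4309, 311 and 1599 TPM (2.71 ± 0.88). Orm1 was at 951, 2154 and 1996 TPM and at 11708, 2663 and 3948 TPM (1.64 ± 0.66). Both Orm genes were higher in every MCF-10A EV library than in any PBS library, by a few TPM in MCF-10A EV 2 for Orm2. Summed over the list the level was 13252 to 33764 TPM with PBS and 160551, 33141 and 50644 TPM in MCF-10A EV 1 to 3, so 1 library carried most of the contrast. The median was 0.55 without MCF-10A EV 1, and 0.10 without PBS 1 as well, a choice made after seeing the data.

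Neutrophil markers moved with the acute phase genes in that same library. Of 12 markers 11 were above 0, with a median of 2.5 that was 0.88 without MCF-10A EV 1. S100a8, an alarmin of neutrophils, was at 3.29, 24.0 and 3.88 TPM with PBS and at 1551, 10.2 and 82.3 TPM with MCF-10A EVs. Camp, a granule peptide, was at 0 to 1.31 TPM and at 291, 0.550 and 8.74 TPM, and the granule enzyme Mpo at 0 to 0.632 TPM and at 119, 0.793 and 3.58 TPM. The summed marker level was 74.0 to 201 TPM with PBS and 9579, 102 and 494 TPM in MCF-10A EV 1 to 3. In bulk tissue, more cells of a type and more RNA per cell cannot be told apart. Chemokines and cytokines under NF-kB were above 0 for 17 of 17 genes, with a median of 0.82 that was 0.01 without MCF-10A EV 1. Cxcl1, which draws neutrophils, was at 10.9, 8.60 and 11.8 TPM with PBS and 93.4, 16.2 and 36.0 TPM with MCF-10A EVs (log2 change 1.79 ± 0.58, limma adjusted p = 0.866). Cxcl13 and Ccl2 peaked in MCF-10A EV 1 too, at 372 and 14.8 TPM against at most 16.4 and 1.88 TPM in the other 5 libraries. The part of neutrophil RNA in these values was not tested.

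**Figure D4:**
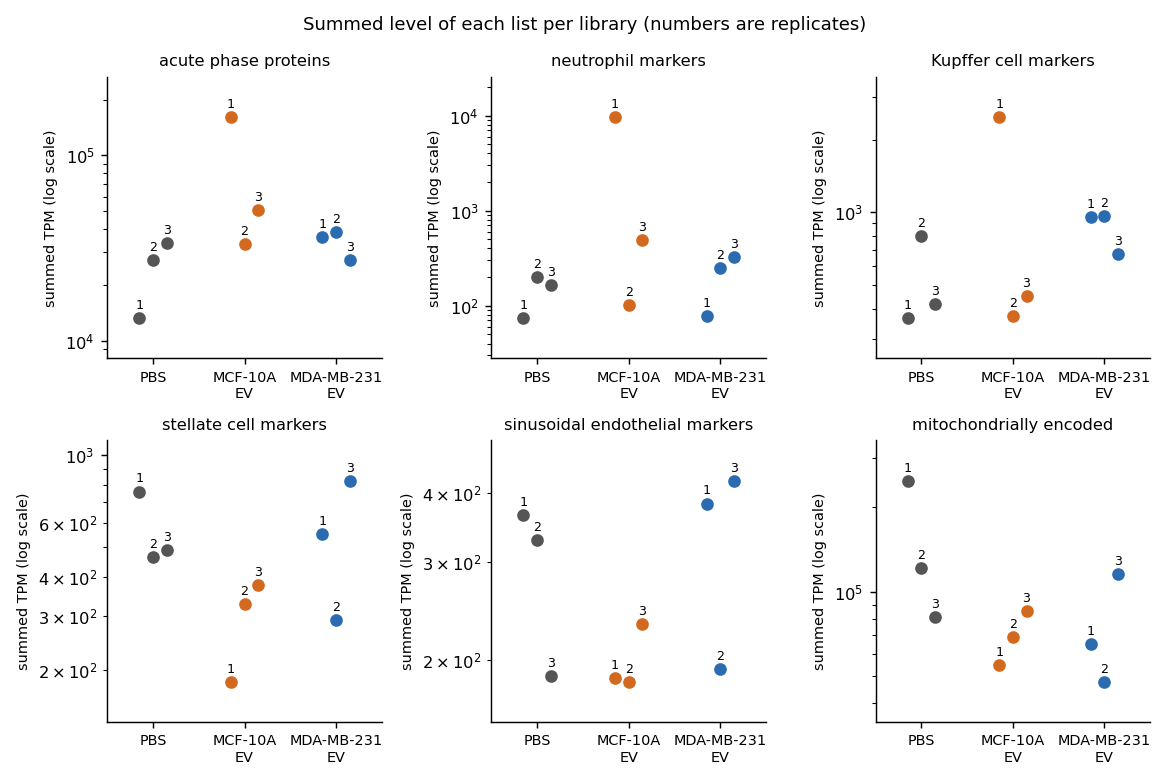
Summed TPM of 6 lists in every library (log y axis), with the replicate number at each point, for PBS (grey), MCF-10A EV (orange) and MDA-MB-231 EV (blue). MCF-10A EV 1 holds 160551 TPM of acute phase genes and 9579 TPM of neutrophil markers, PBS 1 has the most mitochondrially encoded RNA, and stellate markers are lower in all 3 MCF-10A EV libraries than with PBS.

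In the Serpina1 and Serpina3 cluster of secreted protease inhibitors 3 of 13 tested genes separated higher and 2 lower, without a call, beside 3.56% and 3.97% of all tested genes. Serpina3m was at 40.0, 161 and 89.5 TPM with PBS and 551, 382 and 428 TPM with MCF-10A EVs (log2 change 2.41 ± 0.53, limma adjusted p = 0.291). Serpina1b, an alpha-1 antitrypsin, was at 2280, 4975 and 6179 TPM and at 8073, 17273 and 19550 TPM (1.76 ± 0.62). Serpina1e was at 263, 422 and 564 TPM and at 660, 1108 and 1035 TPM (1.20 ± 0.46). These were not highest in MCF-10A EV 1, in contrast to Saa1, except for Serpina3m. The cluster is made of close copies among which reads can be divided in different ways, and its median of 0.43 over 13 tested genes was -0.22 without MCF-10A EV 1. In complement and coagulation 20 of 27 genes were above 0, with a median of 0.34. Plg, plasminogen, was at 280, 476 and 685 TPM and at 1080, 949 and 866 TPM (1.09 ± 0.46). The interferon response had a median of 0.02, which was below 0 under each of the 3 other scalings (-0.12, -0.04 and -0.053). Its 1 separated gene, Oas1a, an antiviral oligoadenylate synthetase, was at 6.17, 5.71 and 3.40 TPM with PBS and at 11.7, 11.5 and 12.03 TPM with MCF-10A EVs (1.09 ± 0.33, limma adjusted p = 0.726).

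Kupffer cells are the main known takers of injected vesicles, and their markers went apart within 1 library. Clec4f, a lectin of resident Kupffer cells, was at 176, 206 and 122 TPM with PBS and at 0.623, 102 and 118 TPM with MCF-10A EVs (log2 change -2.61 ± 1.44, limma adjusted p = 0.997). In that first MCF-10A EV library the scavenger receptor Marco stood at 821 TPM (16.1 to 61.7 TPM in the other 5) and Chil3, a product of monocytes and activated macrophages, at 119 TPM (at most 1.05 TPM in the other 5). Cd163, a haemoglobin scavenger receptor, was lowest there as well, at 1.76 TPM. Over all 14 markers 10 were above 0 and the summed level was 365 to 796 TPM with PBS and 2471, 372 and 451 TPM in MCF-10A EV 1 to 3. Without MCF-10A EV 1 the list median went from 0.51 to -0.18, so the direction rests on that library.

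Stellate cell markers were lower in a more even way. All 10 tested markers of 11 lay below 0, with a median of -0.56, where 40.4% of all genes did, and 0 were called. Rgs5, a G protein regulator of pericytes and stellate cells, was at 28.8, 37.8 and 27.4 TPM with PBS and at 6.73, 10.4 and 7.14 TPM with MCF-10A EVs. Its log2 change of -1.84 ± 0.34 (SE) had a limma adjusted p of 0.15. Hgf, the growth factor for hepatocytes, was at 1.95, 2.55 and 1.52 TPM and at 0.858, 0.264 and 0.364 TPM (-1.01 ± 0.38). Colec11, a collectin, was at 25.2, 35.4 and 29.5 TPM and at 20.0, 18.5 and 14.96 TPM (-0.72 ± 0.33). These 3 of 10 genes separated the groups, beside 3.97% of all tested genes that separated lower, and the others ranged down to -0.0064 for Lrat, which stores retinol in stellate cells and was level at 1.23 to 1.98 TPM and 1.33 to 2.22 TPM. The median stayed between -0.69 and -0.44 without any 1 library and was -0.69 without both PBS 1 and MCF-10A EV 1. Summed levels were 467 to 760 TPM with PBS and 183 to 377 TPM with MCF-10A EVs.

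Sinusoidal endothelial and matrix genes were also mostly below 0, less evenly across libraries. Of 13 endothelial markers 11 were below 0, with a median of -0.41 that was -0.12 without PBS 2 and 0.12 with array weights. Ehd3 separated, at 11.6, 19.0 and 11.2 TPM with PBS and 7.65, 8.10 and 9.28 TPM with MCF-10A EVs (log2 change -0.64 ± 0.34). The lectin Clec4g gave -0.78 ± 0.45 and the scavenger receptor Stab2 -0.82 ± 0.50. Of 29 tested matrix and collagen genes 23 were below 0, with a median of -0.31 that was -0.073 without PBS 2. Col6a1, a chain of collagen VI, was at 7.79, 4.67 and 5.39 TPM and at 1.31, 1.72 and 1.35 TPM (-1.48 ± 0.34, limma adjusted p = 0.303). Col23a1 separated lower too, with 7.48 TPM in PBS 1 and at most 1.55 TPM elsewhere. Col4a1, of basement membranes, was the separated member in the other direction, at 1.92, 4.45 and 4.47 TPM and at 13.8, 4.87 and 5.65 TPM (0.91 ± 0.46).

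Mitochondrially encoded genes were lower in 12 of 12 tested cases, with a median of -1.01 and 0 calls, and the same direction held under each scaling. mt-Cytb, of complex III, was at 22427, 11529 and 7099 TPM with PBS and 5053, 4161 and 4791 TPM with MCF-10A EVs (log2 change -1.40 ± 0.57, limma adjusted p = 0.997). mt-Nd4 and mt-Nd2, of complex I, gave -1.30 ± 0.61 and -1.21 ± 0.58, with no overlap between groups. The median was -0.58 without PBS 1. The list as a whole held 81047 to 249005 TPM with PBS and 54808 to 85469 TPM with MCF-10A EVs, so the sums overlapped. Nuclear genes of oxidative phosphorylation lay above 0 in 67 of 82 cases, with a median of 0.25 that was -0.17 without PBS 1. Cytosolic ribosomal proteins lay above 0 in 75 of 78 cases, with a median of 0.40, and 0.08 without PBS 1. Rpl29 was far above its list, at 32.3, 81.9 and 51.2 TPM and at 243, 227 and 274 TPM (2.24 ± 0.42, limma adjusted p = 0.160). Rpl29 has many processed copies in the genome, and its value is uncertain where reads fit several of them. Among mitochondrial ribosomal proteins Mrpl48 went against a median of 0.12 (-0.0047 without mitochondrially encoded genes in the scaling), at 40.4, 60.7 and 61.3 TPM with PBS and 24.7, 22.2 and 18.7 TPM with MCF-10A EVs (-1.25 ± 0.34, limma adjusted p = 0.573). Psmd12, of the proteasome cap, did the same in a list with a median of 0.30, at 79.5, 69.4 and 82.8 TPM and at 49.0, 37.6 and 26.3 TPM (-1.06 ± 0.36).

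**Figure D5:**
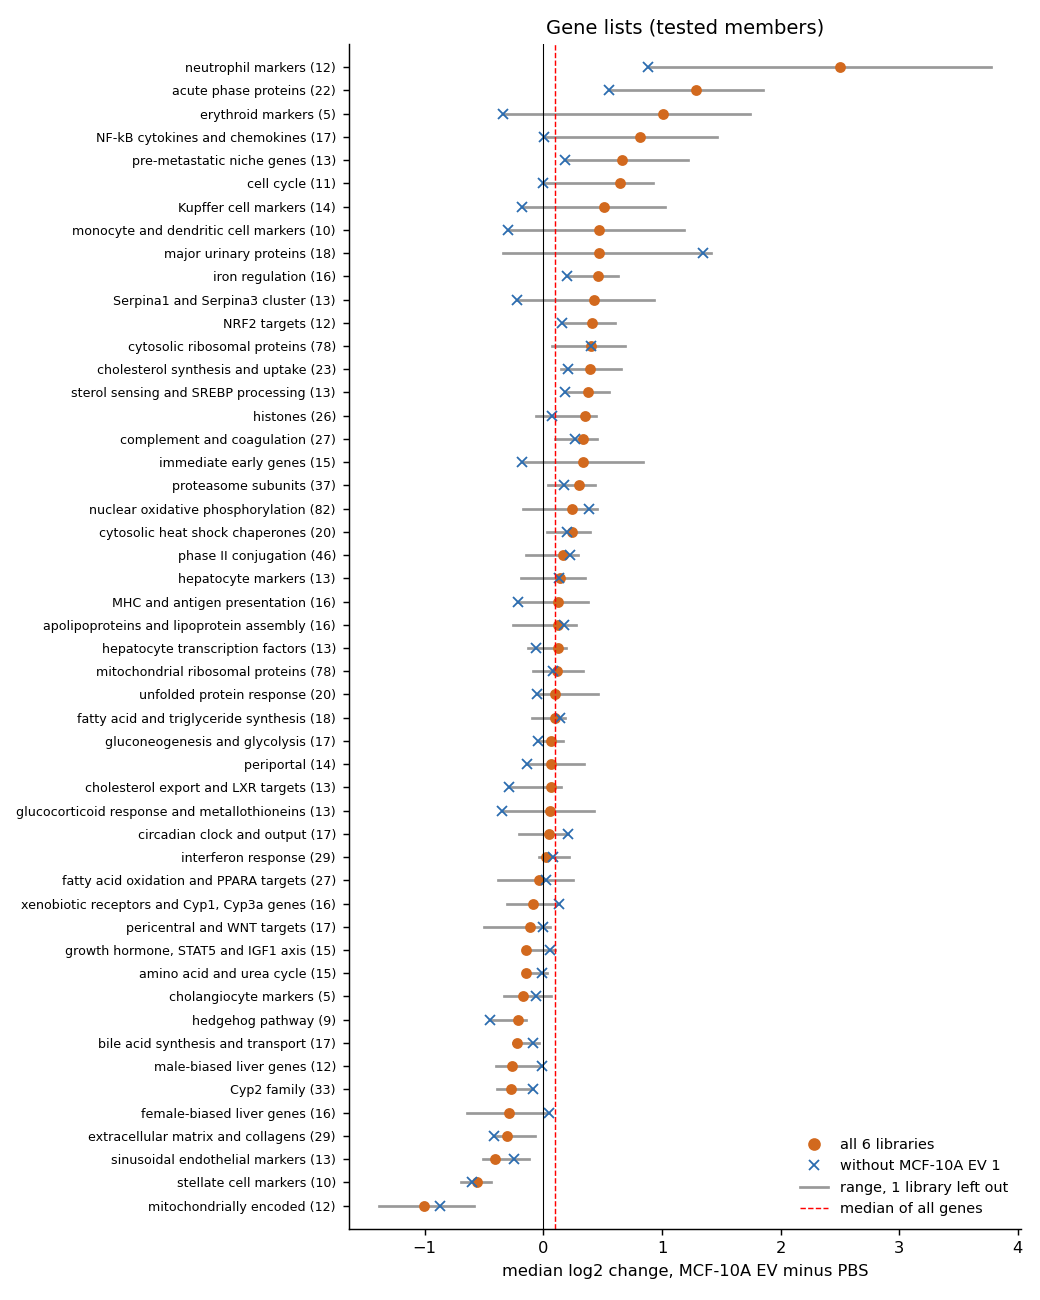
Median log2 change of each of 50 gene lists (MCF-10A EV minus PBS, x axis) with all 6 libraries (orange) and without MCF-10A EV 1 (blue cross), the grey line being the range when 1 library is left out and the dashed line the median of all genes. Acute phase and neutrophil lists lie highest with long lines, stellate markers and mitochondrially encoded genes lie lowest.

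Further features were present in 1 group and listed at 0 in the other, and so had no test. With a mean of at least 1 deposited TPM over the 6 libraries, 68 were at 0 in all PBS libraries and 205 in all MCF-10A EV libraries. Of the 205, 62 were above 0 in all 3 PBS libraries and 94 in at least 1 MDA-MB-231 EV library. Copies of the 5S ribosomal RNA gene made up 29 of the 205. These copies were also at 0 in PBS 1 and in every MDA-MB-231 EV library. The highest named member of the 205 was Rn18s-rs5, a ribosomal RNA sequence, at 893, 2153 and 3130 TPM with PBS. Of the 68, 13 were above 0 in all 3 MCF-10A EV libraries. Cd28, a costimulatory receptor of T cells, was among them at 15.5, 43.2 and 51.0 TPM, and at 0 in every library of the other 2 groups. T cell markers were absent or close to it: Cd3g and Cd8a were at 0 in all 6 libraries, and Cd3e reached 0.13 TPM. Cd3d was, like Cd28, at 0 in all PBS libraries and above 0 in the MCF-10A EV libraries, at 0.75, 0.03 and 0.95 TPM. Of 15 lymphocyte markers 3 were high enough to be tested, and none was called. Ighm, the heavy chain of IgM, was at 14.6 to 41.0 TPM over the 6 libraries as deposited. Nkg7, of cytotoxic cells, and Cd79b, of B cells, peaked in MCF-10A EV 1 at 8.63 and 6.09 TPM.

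miR-9-5p is named in the series title as a product of the cancer cells. Its mouse mature sequence (RefSeq, GRCm38.p6), with the seed at bases 2 to 8 in capitals, is shown because the seed is what pairs with target RNA.
mmu-miR-9-5p: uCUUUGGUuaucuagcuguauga
The 3 mouse genes that hold it, Mir9-1, Mir9-2 and Mir9-3, were listed at 0 TPM in all 9 libraries. A library of this kind is not built to hold mature miRNA, and the listed 0 says nothing about mature miRNA in the vesicles or the liver.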

How the data were processed

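Libraries were made with a TruSeq RNA kit from total RNA, per the labels' protocols. The submitters' processing notes name HISAT2, StringTie, RSEM and the build GRCm39, without versions, order or role. The authors deposited TPM for all 9 libraries in 1 table, and no read counts were used here.

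Ensembl features above 0 in a library of each group were rescaled to a common total per library, kept at a mean of at least 1 TPM, and compared by limma (version 3.58.1, R 4.3.3) after a log2 transform with a pseudocount of 1 (trended prior variance, two-sided, Benjamini-Hochberg over 12456 genes, called at an adjusted p under 0.05). In simulated data the fit found nearly all genes given the larger change and missed most of those given the smaller one. The smallest change called here was 2.51 on the log2 scale, and the median SE over all tested genes was 0.43. A gene without a call is therefore not shown to be unchanged. The log2(TPM + 1) scale understates changes of low genes. The 3 MDA-MB-231 EV libraries entered only the fit of all 9.

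Lists are described by counts and medians, with no set test. Named genes are called genes with a described symbol, separated groups and at least 5 TPM in the higher group (up to 12 per direction, filled to 10 by smallest p), up to 3 members per list, a set of sterol genes and copies of called genes. Some genes that this rule names are not reported here. Tuba5-ps, predicted genes, neighbours and single-library genes were added after their values were seen. The members and lists were chosen with earlier results of these data known. Positions come from GENCODE M21 (GRCm38), matched by identifier for 12443 of the 12456 genes, a build other than the authors' own.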

Additional observations from a re-analysis of the deposited data

Results flagged for a closer look

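Among the 17 genes called between MCF-10A EV and PBS, 5 also differed between the MDA-MB-231 EV and MCF-10A EV libraries by a limma test of that difference. The log2 change of MDA-MB-231 EV minus MCF-10A EV was 5.68 for Tuba5-ps, -3.92 for Gli1, 4.15 for Gm47076, 2.98 for Gm14026 and -2.87 for Gm5827. In each case the MDA-MB-231 EV libraries lay on the side of PBS. Their columns also held assembled loci above 0, as those of PBS did, so vesicle type and the making of the columns cannot be told apart.

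Signal was also present in features left out of the test because every PBS library was at 0. In MCF-10A EV 1 to 3, Cd28 was at 15.5, 43.2 and 51.0 TPM, AI847159 at 32.9, 33.2 and 25.4 TPM, and Gtsf2 at 16.8, 6.28 and 7.74 TPM, as deposited. All 3 genes were at 0 in the MDA-MB-231 EV libraries too. The assembled loci at 0 in every MCF-10A EV library mark the same group, and whether the 2 facts are linked was not tested.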

How the results depend on the processing

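Groups of 3 libraries, an unknown read depth and columns that differ in their making along the group boundary limit every call. Calls higher and lower were 3 and 14. They became 5 and 10 at a mean of 5 TPM or more, 0 and 2 with no mean filter, 17 and 48 when a gene needed no value above 0 in each group, 7 and 17 after median ratio scaling, 7 and 15 after quantile normalization, 2 and 5 in a fit of all 9 libraries, and 196 and 242 with array weights. With 1 library left out they ran from 0 to 1 higher and from 2 to 6 lower. Without both PBS 1 and MCF-10A EV 1, chosen after seeing the data, they were 13 and 24. The 937 genes without overlap became 511 at a mean of 5 TPM or more, 1544 with no mean filter, 1660 to 2183 with 1 library left out and 4563 without both of those libraries, where fewer values have to separate. All called genes that were tested in a setting kept their direction in it.

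Deviations of same-numbered PBS and MCF-10A EV libraries from their group means had correlations of -0.23, -0.11 and -0.19. Those of unlike-numbered libraries ran from -0.38 to 0.40. With means of 3 libraries a group, these values cannot show whether the numbers pair samples. A fit with the replicate number as a block called 0 genes higher and 0 lower, with 372 genes at an unadjusted p under 0.05 and 460 without the block.

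Uncalled sterol genes changed sign in places. Without mitochondrially encoded genes in the scaling Cyp7a1 was at -0.086 and Abca1 at -0.047, and after median ratio scaling Cyp7a1 was at -0.0096. With array weights Insig1 was at -0.56, Sqle at -0.82, Cyp7a1 at -0.28 and Abca1 at -0.13. Without both PBS 1 and MCF-10A EV 1, Insig1 was at -0.13, Insig2 at -0.12, Hmgcs1 at 0.43, Sqle at -0.52 and Abca1 at -0.10. With 1 library left out Hmgcs1 ran from -0.78 to 0.37, Cyp7a1 from -0.29 to 0.42, Srebf1 from -0.074 to 0.58, Abca1 from -0.30 to 0.42, Sqle from -0.24 to 0.72 and Srebf2 from -0.47 to 0.054. Of 50 lists, 39 changed sign in at least 1 setting.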

Other observations

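Several lists not described above also leaned on single libraries. Erythroid markers were above 0 in 5 of 5 tested genes, with a median log2 change of 1.01 that was -0.34 without MCF-10A EV 1, where they summed to 16373 TPM. Alas2, the first enzyme of haem synthesis in red cell precursors, was at 10.8, 26.4 and 12.7 TPM with PBS and 66.9, 22.1 and 21.9 TPM with MCF-10A EVs. Cell cycle genes were above 0 in 11 of 11 tested cases, with a median of 0.65 that was 0.0011 without MCF-10A EV 1. Immediate early genes had a median of 0.33, and -0.18 without it.

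Iron genes were above 0 in 14 of 16 cases, with a median of 0.47 that stayed between 0.20 and 0.63 without any 1 library. Across the other settings the lowest median was 0.066. Aco1, the iron-sensing aconitase, was at 27.0, 24.2 and 31.8 TPM with PBS and 48.9, 48.5 and 58.0 TPM with MCF-10A EVs, apart in every library and not called (log2 change 0.88 ± 0.32, limma adjusted p = 0.997). Id1, a target of BMP signals that also drive hepcidin, was at 10.5, 17.5 and 16.7 TPM and at 25.7, 34.7 and 21.4 TPM (0.83 ± 0.36).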
